A study of Mus musculus with 4 samples.

Results

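The Notch receptors of CD69+DP thymocytes were examined together with the nuclear factors and target genes of the Notch pathway, 10 genes of the 24421 listed. The receptors were *Notch1*, *Notch2* and *Notch3*, the nuclear factors *Rbpj* and *Maml1*, and the targets *Hes1*, *Heyl*, *Dtx1*, *Nrarp* and *Ptcra*. They were found by gene symbol, and all 10 were listed. They were chosen with their levels in both genotypes known, each Foxa1/2cKO sample having been set against both controls. The differences between genotypes given for these genes are therefore a description, without a test.

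RNA was sequenced from thymocytes of 6 week old C57BL/6 mice that had been sorted as CD69+CD4+CD8+, the double-positive (DP) cells that carry the activation marker CD69. The 2 control samples came from mice of the genotype Foxa1 fl/fl Foxa2 fl/fl CD4Cre-, and the 2 Foxa1/2cKO samples from Foxa1 fl/fl Foxa2 fl/fl mice that carry the CD4Cre transgene, so the floxed alleles of both genes are present in all 4 samples. Cre is driven by the *Cd4* promoter, which gives deletion in T-lineage cells from the DP stage onwards, and wild-type mice without floxed alleles were not part of the comparison. According to the methods of the study every sample was sorted on its own, and no mouse contributed to more than 1 sample. The methods name 2 mice of either genotype for a sort, which leaves unclear whether a sample is 1 mouse or a pool, so the SDs given here are those between samples. The comparison of the genotypes asks which transcripts differ at positive selection when Foxa1 and Foxa2, a pair of forkhead transcription factors, are missing.

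Notch receptors are activated by ligands of the Delta and Jagged families on a neighbouring cell. The protease ADAM10 and then gamma-secretase cut the bound receptor, and its intracellular domain moves to the nucleus, where it joins the DNA-binding protein RBPJ and a coactivator of the Mastermind family to switch on target genes. In the thymus the pathway commits progenitors to the T-cell lineage and drives them through the double-negative (DN) stages, and its activity declines after beta-selection, when cells with a pre-TCR become DP.

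The promoters of *Notch3*, *Dtx1*, *Nrarp* and *Ptcra* are shown because these are the genes with a sequence that were at or under 0.5 of the control mean in Foxa1/2cKO 2. Sequences from 250 bases before to 50 bases after the transcription start were taken from RefSeq on GRCm38.p6, which holds an entry for 8 of the 10 genes, and they read 5′ to 3′ on the strand of the gene. The windows are chr17:32166841-32167140 on the minus strand for *Notch3*, chr5:120711620-120711919 on the minus strand for *Dtx1*, chr2:25180508-25180807 on the plus strand for *Nrarp* and chr17:46763663-46763962 on the minus strand for *Ptcra*. Capitals mark TGGGAA, the core of the RBPJ motif.
*Notch3* promoter: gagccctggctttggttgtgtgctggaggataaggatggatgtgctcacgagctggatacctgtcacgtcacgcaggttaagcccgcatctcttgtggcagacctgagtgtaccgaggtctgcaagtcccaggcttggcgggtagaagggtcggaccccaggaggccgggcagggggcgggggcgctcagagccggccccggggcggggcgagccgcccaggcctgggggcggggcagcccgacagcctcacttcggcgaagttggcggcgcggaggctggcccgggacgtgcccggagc
*Dtx1* promoter: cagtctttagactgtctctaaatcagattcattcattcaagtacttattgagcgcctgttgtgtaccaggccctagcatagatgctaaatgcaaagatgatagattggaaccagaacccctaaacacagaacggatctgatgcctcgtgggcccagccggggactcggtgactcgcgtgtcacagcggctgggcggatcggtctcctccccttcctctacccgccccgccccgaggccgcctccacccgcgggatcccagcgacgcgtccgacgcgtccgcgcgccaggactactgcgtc
*Nrarp* promoter: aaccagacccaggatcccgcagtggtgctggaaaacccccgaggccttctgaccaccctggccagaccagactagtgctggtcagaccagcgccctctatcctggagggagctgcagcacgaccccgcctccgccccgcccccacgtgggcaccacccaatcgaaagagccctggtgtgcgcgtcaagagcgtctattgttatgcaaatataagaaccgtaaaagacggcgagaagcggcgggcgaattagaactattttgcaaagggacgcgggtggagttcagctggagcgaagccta
*Ptcra* promoter: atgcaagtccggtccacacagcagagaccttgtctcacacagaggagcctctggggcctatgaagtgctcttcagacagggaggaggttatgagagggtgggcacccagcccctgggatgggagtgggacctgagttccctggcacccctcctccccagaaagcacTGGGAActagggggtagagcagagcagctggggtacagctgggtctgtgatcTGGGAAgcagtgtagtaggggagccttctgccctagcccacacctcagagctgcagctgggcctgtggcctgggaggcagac
The longer RBPJ motif GTGGGAA and the forkhead motif TGTTTAC, searched on both strands (TTCCCAC and GTAAACA on the other), had no match in the windows of the 8 genes. Only 6.38% and 3.65% of all 32851 RefSeq promoters of the same length hold them, so nothing is read from their absence in 8 genes. The shorter TGGGAA, which lies within the longer RBPJ motif, was also searched on both strands and was added after the longer one had given no match. It occurs in 25.6% of all promoters and was found in *Ptcra*, starting 84 and 32 bases before the transcription start, and in *Rbpj*. The *Ptcra* window holds 1 CpG, against 25 in *Notch3*, 26 in *Dtx1* and 21 in *Nrarp*. Its GC content of 61.7% lies close to the 59.3% of *Dtx1* and the 60% of *Nrarp*, and the median over all promoters was 52.7%. A match describes letters in a window and does not show binding.

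The values are FPKM, in which the fragments of a gene are divided by its length in kilobases and by a total for the sample. This gives levels a common unit, but it does not correct for differences between samples in RNA composition or in the total used. Where a pair of values is given for a genotype, replicate 1 comes first and replicate 2 second. Whole reads were recovered from their steps, 10257794 to 14288425 per sample. In Foxa1/2cKO 2 they came to 11115464, above the total of 11093927 that its values were divided by. In the other samples they were below that total. The reason was not tested, so the recovered reads or the scale of Foxa1/2cKO 2 may be off, and small differences in that sample may hold an offset. *Foxa1* and *Foxa2* were listed at 0 in all 4 samples, where 3 reads would have been an FPKM of 0.0602 to 0.0835 for *Foxa1* and 0.0846 to 0.117 for *Foxa2* (counting error only), so they do not check the genotypes. The markers of the sort were present in every sample, with *Cd4* between 342 and 446 FPKM, *Cd8a* between 475 and 666 and *Cd69* between 103 and 121. Foxa1/2cKO 2 stood apart from the other 3 samples: the log2(FPKM + 1) difference between the Foxa1/2cKO samples had an SD of 0.405 over the 10776 genes with at least 1 FPKM in at least 2 samples, against 0.198 between the controls. Over these genes limma called 1 gene (0.00928%) at an adjusted p under 0.05, the non-coding *2610035D17Rik*, named after its value was seen, and limma-voom on the recovered reads called 0, with 518 (4.81%) at an unadjusted p under 0.05. With 2 samples a side, the smallest two-sided p of an exact permutation test is 0.333, and p-values measure the spread between these samples only.

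Among the 10 genes, *Notch3* and 4 of the 5 targets were lower in both Foxa1/2cKO samples, and the nuclear factors were level or higher. Of these targets, *Hes1* (2 to 27 reads per sample) and *Heyl* (6 to 16) rest on few reads. Both Foxa1/2cKO samples lay below both controls for 5 genes, *Notch3*, *Dtx1*, *Hes1*, *Heyl* and *Ptcra*, and above both for 1, *Rbpj*. The groups overlapped for *Notch1*, *Notch2*, *Nrarp* and *Maml1*. Over all genes tested, the corresponding shares were 17.8% below and 18.9% above, 36.7% without overlap, and nothing is read from them because the 10 genes were chosen on this contrast. The difference was larger in Foxa1/2cKO 2 for *Notch3*, *Dtx1*, *Hes1*, *Nrarp* and *Ptcra*. These 5 were at or under 0.5 of the control mean in that sample (5.25% of all genes tested), whereas Foxa1/2cKO 1 was so for 0 of the 10 (0.77%). *Heyl* was lower in Foxa1/2cKO 1 than in Foxa1/2cKO 2. Taken alone, Foxa1/2cKO 1 was below both controls for 6 genes and above both for 3 (40.7% and 36.4% of all genes tested), and Foxa1/2cKO 2 was below both for 7 and above both for 2 (39.6% and 46.3%). The value of 8 of the 10 genes was lower in Foxa1/2cKO 2 than in Foxa1/2cKO 1. The share of all genes with this order was not counted, so nothing is read from it. In samples of many cells, fewer cells of a type and less RNA per cell cannot be told apart.

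**Figure D1:**
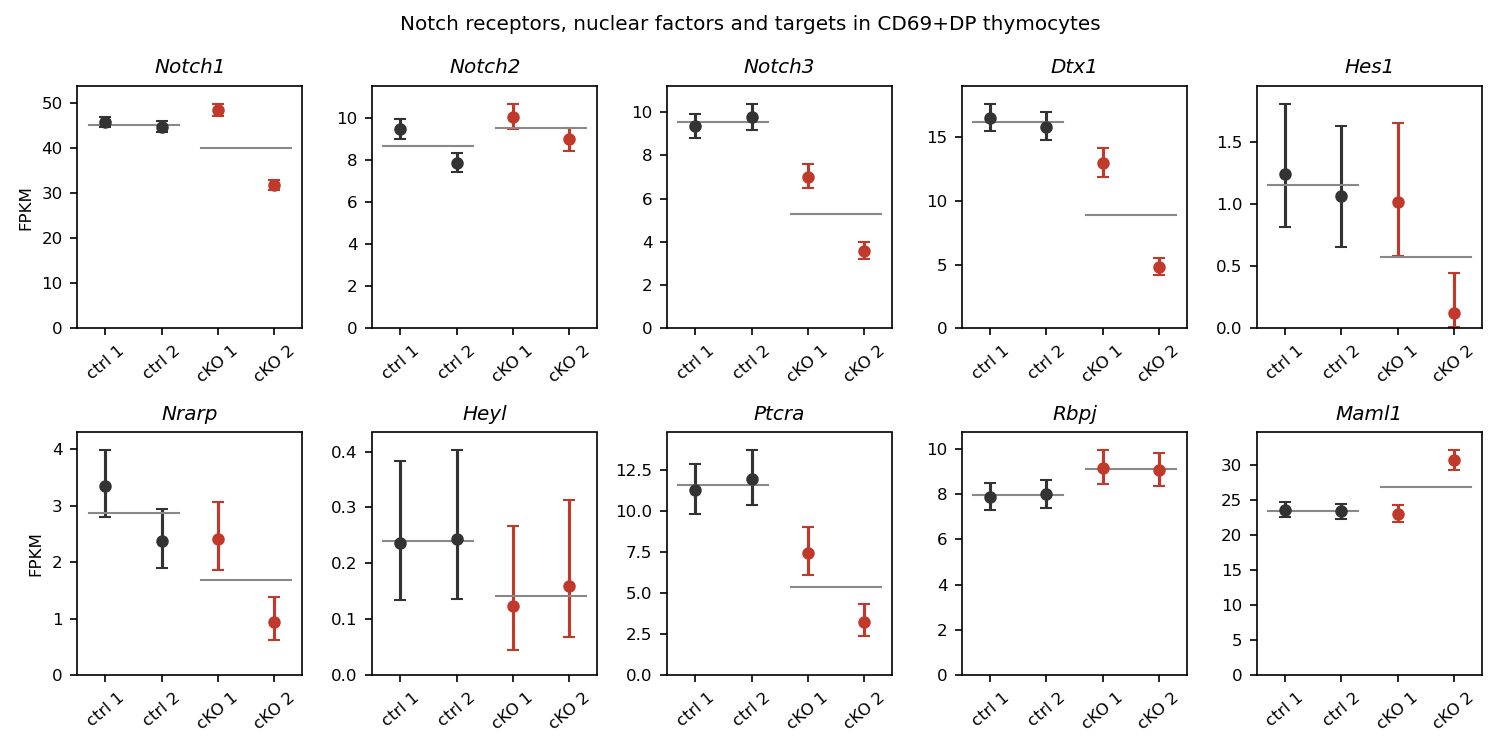
FPKM of the 10 genes in each of the 4 samples, 1 panel per gene with its own axis from 0. Points are samples (black, control; red, Foxa1/2cKO), error bars are exact 95% Poisson intervals of the recovered reads, which cover counting error only, and grey lines are group means. *Notch3*, *Dtx1* and *Ptcra* step down from the controls to Foxa1/2cKO 1 and again to Foxa1/2cKO 2, while *Rbpj* is slightly higher in both Foxa1/2cKO samples.

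*Notch1* (chromosome 2 of mm10, 26457903 to 26516663, minus strand) encodes the receptor that commits thymic progenitors to the T-cell lineage, and it was the most abundant of the 10 genes in both genotypes. Its level was 45.7 and 44.7 FPKM in the controls against 48.4 and 31.8 in the Foxa1/2cKO samples. The Foxa1/2cKO samples lay on either side of the controls, with the first at 107% and the second at 70.4% of the control mean. The group means were 45.2 ± 0.686 and 40.1 ± 11.7 FPKM (SD, n = 2 each), and the mean log2(FPKM + 1) of Foxa1/2cKO was lower by 0.20 (a difference of -0.20), which became 0.10 without Foxa1/2cKO 2. These levels rest on 3347 to 6486 reads, and the ratio of Foxa1/2cKO 2 to Foxa1/2cKO 1 was 0.657 (exact 95% interval 0.629 to 0.687, counting error only).

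*Notch2* (chromosome 3, 98013527 to 98150361, plus strand), a receptor known for its part in the development of marginal zone B cells, was at 9.48 and 7.87 FPKM in the controls against 10.1 and 8.98 in the Foxa1/2cKO samples. The samples of the genotypes interleave. The means were 8.68 ± 1.14 FPKM for control and 9.53 ± 0.767 FPKM for Foxa1/2cKO (SD over 2 samples), a difference of 0.12 in log2(FPKM + 1) that lay within the spread of the controls. It ran from 0.00 without control 2 to 0.24 without control 1. The samples had the same order in the summed level of B-cell markers, of which 7 of a list of 8 were listed and none was at 0. Their summed level was 78.4 and 52.1 FPKM in the controls against 107 and 56.0 in the Foxa1/2cKO samples, and all 7 were highest in Foxa1/2cKO 1. The part of B cells in the *Notch2* level was not tested.

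*Notch3* (chromosome 17, 32120820 to 32166852, minus strand), a receptor expressed in immature thymocytes, was the receptor whose groups did not overlap. It was at 9.34 and 9.76 FPKM in the controls against 7.02 and 3.60 in the Foxa1/2cKO samples. The controls were close together, the first Foxa1/2cKO sample was at 73.5% of their mean and the second at 37.7%. The reads behind these values were 1110, 1053, 602 and 317 in the same order. On the counts alone Foxa1/2cKO 1 was at 0.736 (0.671 to 0.806) and Foxa1/2cKO 2 at 0.377 (0.334 to 0.424) of both controls, and the Foxa1/2cKO samples differed from each other by a ratio of 0.512 (0.446 to 0.588, exact 95% intervals for counting error). The difference in mean log2(FPKM + 1) was -0.80, and it was -0.40 without Foxa1/2cKO 2 and -1.20 without Foxa1/2cKO 1.

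*Rbpj* (chromosome 5, 53466152 to 53657362, plus strand), the DNA-binding factor that the receptors converge on, was the gene with the closest Foxa1/2cKO replicates. Its level was 7.89 and 8.01 FPKM in the controls and 9.16 and 9.07 FPKM in Foxa1/2cKO 1 and Foxa1/2cKO 2. The Foxa1/2cKO samples were at 115% and 114% of the control mean, higher than either control. The group means were 7.95 ± 0.0818 and 9.12 ± 0.0666 (SD, n = 2 each), and the difference of 0.18 in log2(FPKM + 1) ranged from 0.17 to 0.19 when each sample was left out. Of the 50-base stretches of its longest transcript, 24.3% also occur in other annotated genes, with the pseudogene *Rbpj-ps3* among those sharing most, so its reads may be divided between copies.

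*Maml1* (chromosome 11, 50255634 to 50292311, minus strand), a Mastermind coactivator, was at 23.6 and 23.4 FPKM in the controls against 23.1 and 30.7 in the Foxa1/2cKO samples. The first Foxa1/2cKO sample was level with the controls, at 98.2% of their mean, and the second was at 131%. The difference of 0.17 in log2(FPKM + 1) became -0.03 without Foxa1/2cKO 2. In that sample the gene for this coactivator was above the controls, while all 5 target genes were below them.

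*Hes1* (chromosome 16, 30064384 to 30067796, plus strand) encodes a basic helix-loop-helix repressor and is among the best-known direct targets of Notch. It was low, at 1.24 and 1.07 FPKM in the controls against 1.02 and 0.124 in the Foxa1/2cKO samples. The first Foxa1/2cKO sample lay just under the controls, and the second was lower than the other 3 samples. The reads were 27, 21, 16 and 2, so Foxa1/2cKO 1 was at 0.881 (0.467 to 1.58) and Foxa1/2cKO 2 at 0.107 (0.0126 to 0.409) of both controls on the counts (exact 95% intervals). The difference in mean log2(FPKM + 1) was -0.51, and it was -0.09 without Foxa1/2cKO 2 and -1.32 with a pseudocount of 0.1. *Hes1* passed the minimum of 1 FPKM through the controls and Foxa1/2cKO 1.

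*Heyl* (chromosome 4, 123233556 to 123249875, plus strand), a related repressor of the Hey family, was at 0.236 and 0.244 FPKM in the controls against 0.123 and 0.159 in the Foxa1/2cKO samples. It was the gene that did not pass the minimum, with 16, 15, 6 and 8 reads. Both Foxa1/2cKO samples lay below both controls, at 51.1% and 66.3% of their mean. With so few reads the counting intervals of the ratio to both controls were wide, 0.175 to 1.24 and 0.264 to 1.48.

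*Dtx1* (chromosome 5, 120680202 to 120711927, minus strand) encodes Deltex, an E3 ubiquitin ligase that binds the receptor and is itself induced by Notch. It was the most abundant of the targets, at 16.5 and 15.8 FPKM in the controls against 13.0 and 4.83 in the Foxa1/2cKO samples. The first Foxa1/2cKO sample was at 80.3% of the control mean and the second at 29.9%, so most of the difference of -0.93 in log2(FPKM + 1) came from the second. It was -0.30 without Foxa1/2cKO 2 and -1.56 without Foxa1/2cKO 1. With 199 to 916 reads, the Foxa1/2cKO samples differed from each other by a ratio of 0.372 (0.315 to 0.439).

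*Nrarp* (chromosome 2, 25180758 to 25183339, plus strand) is a gene of 1 exon whose ankyrin-repeat protein limits Notch signalling by binding the complex of the intracellular domain and RBPJ. Its level was 3.35 and 2.37 FPKM in the controls against 2.41 and 0.945 in the Foxa1/2cKO samples. Foxa1/2cKO 1 lay between the controls and Foxa1/2cKO 2 below them, at 84.3% and 33.0% of the control mean. Foxa1/2cKO 2 was at 0.328 (0.211 to 0.490) of both controls on the counts, from 27 reads against 212. The difference in mean log2(FPKM + 1) was -0.57, or -0.17 without Foxa1/2cKO 2 and -0.98 without Foxa1/2cKO 1. The antisense gene *Gm38287* covers 79.4% of the exon bases of *Nrarp*, and the strand setting of the gene counts is not given in the sources used here, while the exons were counted without strand per the methods of the study, so reads of the pair may not be told apart.

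*Ptcra* (chromosome 17, 46755663 to 46763712, minus strand) encodes the pre-TCR alpha chain, which pairs with the TCR beta chain at beta-selection, and had a difference in mean log2(FPKM + 1) of -1.08, the largest of the 10 genes with a pseudocount of 1. *Hes1* exceeded it with a pseudocount of 0.1 (-1.32 against -1.22) and with limma-voom (-1.55 against -1.24). It was at 11.2 and 11.9 FPKM in the controls against 7.44 and 3.23 in the Foxa1/2cKO samples. Both Foxa1/2cKO samples were below both controls, at 64.1% and 27.9% of their mean. The difference was -0.58 without Foxa1/2cKO 2 and -1.57 without Foxa1/2cKO 1. From 103 and 46 reads against 424, the ratio to both controls was 0.642 (0.513 to 0.798) in Foxa1/2cKO 1 and 0.279 (0.201 to 0.379) in Foxa1/2cKO 2 (exact 95% intervals).

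**Figure D2:**
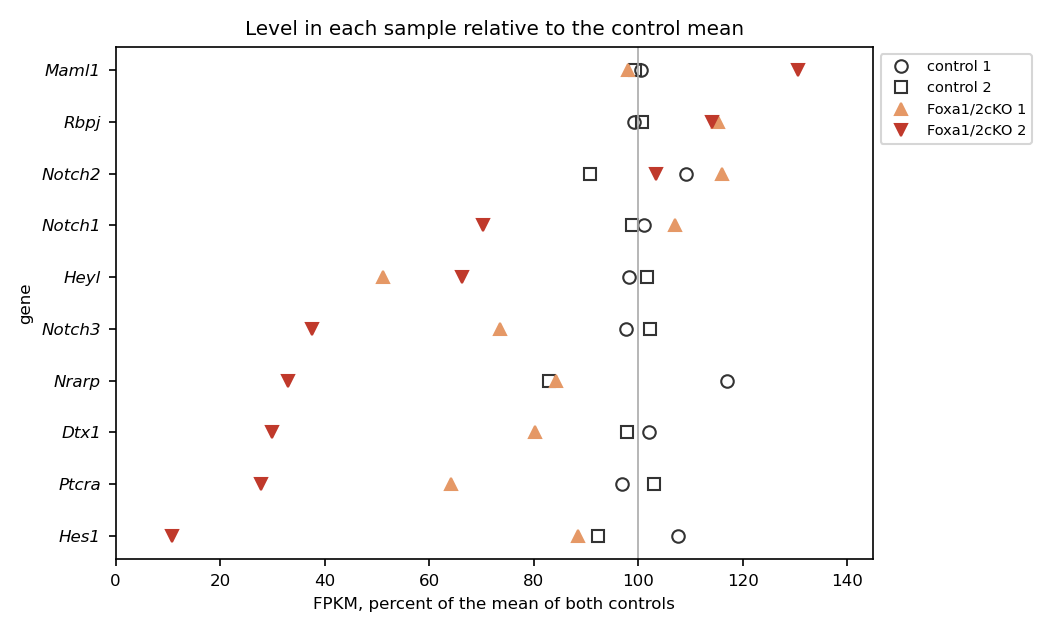
Level of each gene in each sample as a percent of the mean of both controls (vertical line at 100), ordered by the level in Foxa1/2cKO 2. Open symbols are controls and triangles Foxa1/2cKO samples. *Hes1*, *Ptcra*, *Dtx1*, *Nrarp* and *Notch3* lie between 10.8% and 37.7% in Foxa1/2cKO 2 and between 64.1% and 88.5% in Foxa1/2cKO 1.

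The order of the levels also differed between the genotypes. In the controls it ran from *Notch1* through *Maml1*, *Dtx1* and *Ptcra* to *Notch3*, *Notch2* and *Rbpj*, and then to *Nrarp*, *Hes1* and *Heyl*. The ranges of neighbours overlapped between *Notch3* and *Notch2* and between *Notch2* and *Rbpj*, and the other neighbours were separate. In Foxa1/2cKO, *Notch2* and *Rbpj* came before *Dtx1*, *Ptcra* and *Notch3*, but the ranges of neighbours among these 5 overlapped, as did those from *Nrarp* to *Heyl*. *Dtx1* exceeded *Rbpj* in Foxa1/2cKO 1 (13.0 against 9.16 FPKM) and was under it in Foxa1/2cKO 2 (4.83 against 9.07 FPKM).

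The median difference in mean log2(FPKM + 1) was -0.51 over the 9 genes that passed the minimum and -0.36 over all 10, beside 0.01 over all genes tested. It was -0.09 without Foxa1/2cKO 2 and -0.94 without Foxa1/2cKO 1, so its size depended on which Foxa1/2cKO sample was used. The pseudocount of 1 makes these differences understate the change of low genes, and with a pseudocount of 0.1 the median was -0.85.

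The rest of the pathway was read from 73 genes in lists by role, of which 56 passed the minimum and were tested. At an unadjusted p under 0.05 in limma, 2 were higher (*Itch* and *Dtx3l*) and 1 was lower (*Nedd4*), 5.36% of those tested beside 4.55% of all genes (2.39% higher and 2.15% lower). No gene of the lists had an adjusted p under 0.05, the smallest being 0.863, and limma-voom also gave 3 and 0. The groups did not overlap for 23 of the 56 (41.1%, beside 36.7% of all genes tested), 10 lower and 13 higher in Foxa1/2cKO. The median difference of the 56 genes was 0.00 in log2(FPKM + 1).

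All 3 belonged to the list of receptor trafficking and turnover, of which 11 genes were tested, with a median difference of 0.07. *Itch*, whose ubiquitin ligase promotes Notch degradation, was at 22.0 and 23.8 FPKM in the controls against 27.9 and 28.7 in the Foxa1/2cKO samples, a log2 difference of 0.30 (SE 0.09, unadjusted p = 0.0235, adjusted p = 0.863 in limma). *Dtx3l*, a relative of *Dtx1*, was at 24.0 and 23.6 FPKM in the controls against 29.4 and 27.9 in the Foxa1/2cKO samples, a log2 difference of 0.26 (SE 0.08, unadjusted p = 0.0321, adjusted p = 0.863 in limma). Both Foxa1/2cKO samples were above both controls for both genes. *Nedd4*, another ubiquitin ligase gene, was at 62.8 and 64.0 FPKM in the controls against 54.5 and 54.3 in the Foxa1/2cKO samples, below both, with a log2 difference of -0.22 (SE 0.08, unadjusted p = 0.0425, adjusted p = 0.863 in limma). The most abundant gene of this list beside *Nedd4*, *Dtx3*, was at 59.7 FPKM in each control against 55.0 and 61.9 in the Foxa1/2cKO samples, on either side of the controls. With the replicate number as a block, or without either control, none of the 56 genes had an unadjusted p under 0.05.

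Ligands were almost absent from the sorted cells. Of 8 genes for ligands and the receptor *Notch4*, 7 stayed at or under 0.135 FPKM in every sample, and only *Jag2* was tested, at 1.93 and 1.96 FPKM in the controls against 1.65 and 2.11 in the Foxa1/2cKO samples. The proteases that cut the receptor were expressed, with 8 of 10 processing genes tested, none with an unadjusted p under 0.05 and a median difference of 0.03. Among them the gamma-secretase subunit gene *Ncstn* was at 47.1 and 48.1 FPKM in the controls against 44.9 and 49.9 in the Foxa1/2cKO samples, and *Psenen*, which encodes another subunit, was at 44.5 and 41.2 FPKM in the controls against 39.9 and 47.7 in the Foxa1/2cKO samples. For both genes the controls lay between the Foxa1/2cKO samples.

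The 5 genes of receptor glycosylation had a median difference of -0.14, and none had an unadjusted p under 0.05. *Lfng*, the Fringe enzyme that tunes the response of Notch1 to Delta ligands, was at 36.7 and 41.5 FPKM in the controls against 50.1 and 14.5 in the Foxa1/2cKO samples. The Foxa1/2cKO samples lay on opposite sides of the controls, and the difference of -0.51 (SE 0.57, unadjusted p = 0.416 in limma) was 0.35 without Foxa1/2cKO 2 and -1.37 without Foxa1/2cKO 1. Another Fringe gene, *Mfng*, was at 30.0 and 30.2 FPKM in the controls against 29.9 and 24.9 in the Foxa1/2cKO samples.

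Genes of the nuclear complex other than *Rbpj* and *Maml1* went both ways. Of the 10 coactivator genes and the 11 of 13 corepressor genes that were tested, none had an unadjusted p under 0.05, and the medians were 0.01 and 0.04. Both Foxa1/2cKO samples lay below both controls for 1 coactivator and 2 corepressor genes and above them for 1 and 4. Over all genes tested, 17.8% were below and 18.9% above, so nothing is read from these counts. The demethylase gene *Kdm5a*, named after its values were seen, had a difference of 0.25 and the acetyltransferase gene *Kat2b*, likewise, of 0.18, at least as large as that of *Rbpj*. The coactivator gene *Snw1* (SKIP) was at 67.7 and 64.2 FPKM in the controls against 66.2 and 73.4 in the Foxa1/2cKO samples, and the acetyltransferase gene *Crebbp* was at 35.5 and 31.2 FPKM in the controls against 34.8 and 34.7 in the Foxa1/2cKO samples. The corepressor gene *Ctbp1* was at 138 FPKM in both controls against 141 and 156 in the Foxa1/2cKO samples. *Tle3*, a Groucho corepressor, was at 89.1 and 82.9 FPKM in the controls against 81.1 and 99.1 in the Foxa1/2cKO samples. Only for *Ctbp1*, among these 4 genes, were both Foxa1/2cKO samples above both controls.

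Of 14 other genes that respond to Notch in thymocytes or elsewhere, 10 were tested, with a median difference of -0.04 and none at an unadjusted p under 0.05. *Tcf7*, the T-lineage factor TCF1 that Notch induces in progenitors, was at 1706 and 1645 FPKM in the controls against 1379 and 1873 in the Foxa1/2cKO samples, and the cyclin gene *Ccnd3* was at 414 and 437 FPKM in the controls against 379.6 and 380.4 in the Foxa1/2cKO samples. *Myc* and *Il2ra*, named after their values were seen, were with *Lfng* the 3 of 56 tested pathway genes (5.36%) at or under 0.5 of the control mean in Foxa1/2cKO 2, about the share of all genes tested (5.25%). *Myc* was at 53.5, 54.0 and 52.4 FPKM in the controls and Foxa1/2cKO 1 and 20.7 in Foxa1/2cKO 2, and *Il2ra*, which encodes CD25, was at 6.65, 7.25 and 6.34 FPKM and then 3.34. In Foxa1/2cKO 1, 0 of the 56 genes were so low (0.77% of all genes tested). *Hey1*, a relative of *Heyl* also named after its values were seen, was under the minimum, with 18 and 11 control reads against 4 and 1 Foxa1/2cKO reads.

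**Figure D3:**
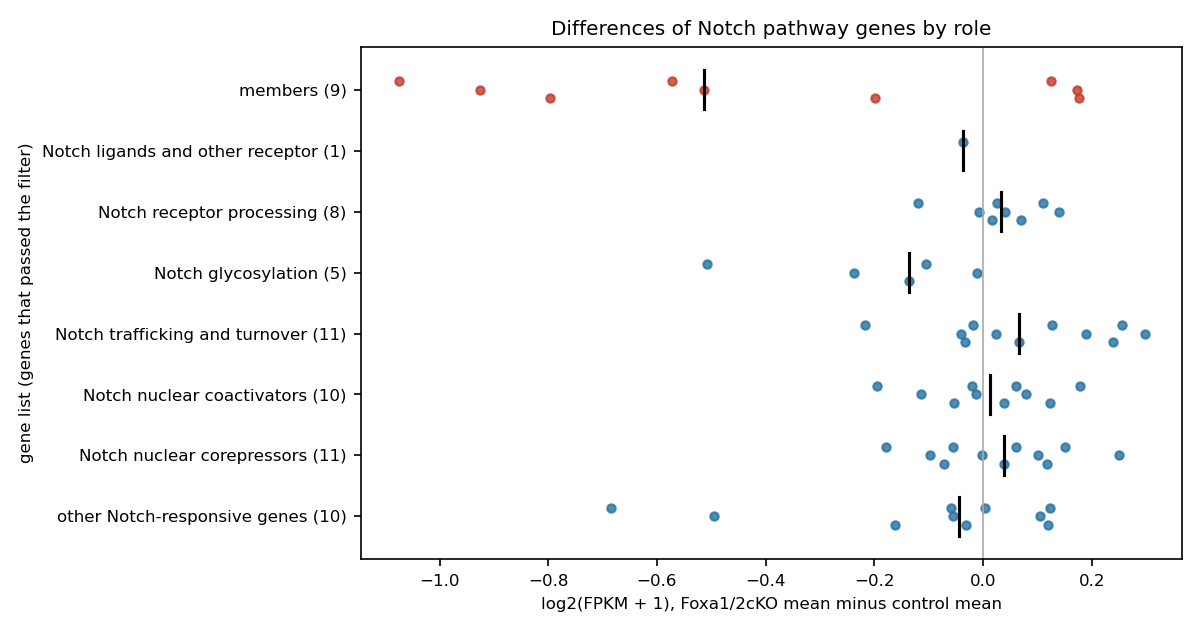
Difference in mean log2(FPKM + 1), Foxa1/2cKO minus control, of the Notch receptors, nuclear factors and targets described here (red, top row) and of the other pathway genes by list (blue). Each point is a gene that passed the minimum of 1 FPKM in 2 samples, black bars are medians, and the number of genes is beside each list. The 9 red points have a median of -0.51 and were chosen with these values known, while the list medians lie between -0.14 and 0.07.

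Several marker lists of stage and cycling also stood apart in Foxa1/2cKO 2. In Foxa1/2cKO 2, the summed level of 12 cycling genes was 284 FPKM, against 662 and 689.7 in the controls and 723 in Foxa1/2cKO 1. All 12 were below both controls in Foxa1/2cKO 2, as were 39.6% of all genes tested. The 10 mature SP genes summed to 404 FPKM in Foxa1/2cKO 2, against 541 and 590.4 in the controls and 606 in Foxa1/2cKO 1, with 8 of 10 below both controls. The 10 genes listed for DN3 thymocytes also hold *Cd44*, *Kit*, *Spi1* and *Lyl1*, which are known from earlier progenitors, and share *Il2ra* and *Hes5* with the Notch-responsive genes, so their sum is not a measure of DN3 cells alone. They summed to 16.0 FPKM in Foxa1/2cKO 2, against 26.1 and 23.9 in the controls and 28.0 in Foxa1/2cKO 1. In Foxa1/2cKO 2, 6 of 10 were below both controls, and none was at 0. Beside the share of 39.6%, nothing is read from this count of 10 genes. Genes of DP identity went the other way, at 4717 FPKM in Foxa1/2cKO 2 against 3709.5 and 3739.7 in the controls and 3663 in Foxa1/2cKO 1.

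In Foxa1/2cKO 1 the cycling, mature SP and DN3 sums were 1.07, 1.07 and 1.12 of the control mean. Within the DN3 list, 6 of 10 genes were above both controls in that sample (36.4% of all genes tested). *Spi1* (3.82 FPKM) and *Lyl1* (3.70 FPKM) were among them. The 2 below both were *Il2ra* (6.34 FPKM) and *Hes5* (0.218 FPKM). The B-cell sum was also highest in Foxa1/2cKO 1, at 107 FPKM, and the part of B or myeloid cells in the DN3 sum was not tested. Of 7 gamma delta T-cell markers, 3 were listed and *Il17a* was at 0, so their sum rests on *Sox13* and *Cd163l1*. This sum was 8.10 and 10.9 FPKM in the controls against 6.81 and 3.51 in the Foxa1/2cKO samples. In Foxa1/2cKO 1 *Cd163l1* was nearly level, at 1.85 FPKM against 1.90 and 2.03 in the controls. Myeloid markers, all 8 listed, were higher in control 1 and Foxa1/2cKO 1 than in the other samples, with 53.7 and 30.2 FPKM in the controls against 51.7 and 33.9 in the Foxa1/2cKO samples. The 10 TCR response genes, *Cd69* of the sort among them, summed to 2084 and 1922 FPKM in the controls against 1813 and 2485 in the Foxa1/2cKO samples. Of these, 7 were below both controls in Foxa1/2cKO 1 and 8 above both in Foxa1/2cKO 2 (40.7% and 46.3% of all genes tested). Preselection DP genes, 9 of 10 listed, summed to 1433 and 1472 FPKM in the controls against 1442 and 1723 in the Foxa1/2cKO samples. Erythroid markers summed to at most 2.73 FPKM in any sample, with 4 of 7 at 0 in all, and thymic epithelial markers to at most 11.1 FPKM, with 2 of 7 reaching 1 FPKM. The part of any of these cells or states in the levels of the 10 genes was not tested.

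**Figure D4:**
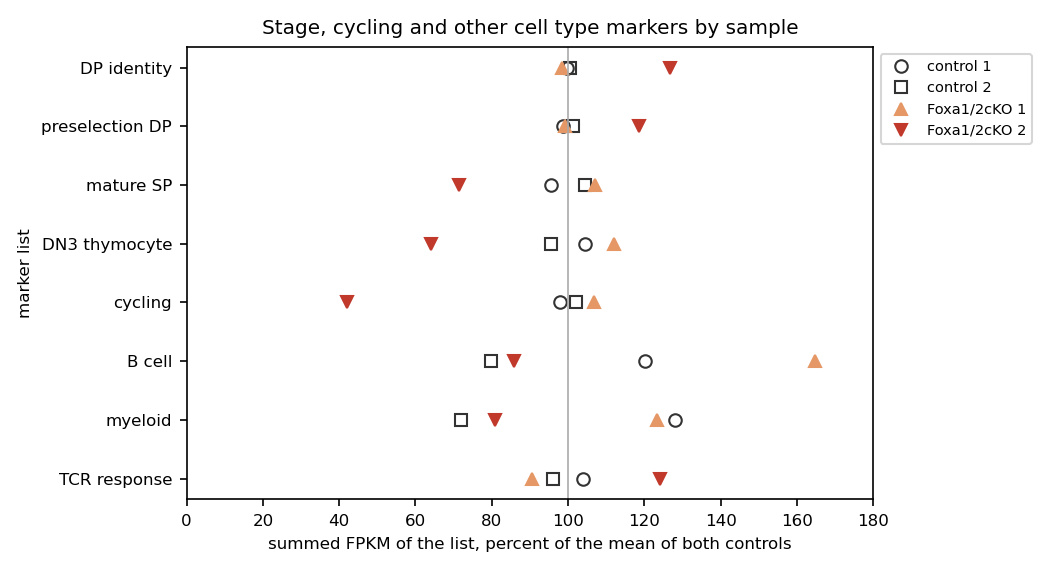
Summed FPKM of marker lists in each sample, as a percent of the mean of both controls (vertical line at 100). Open symbols are controls and triangles Foxa1/2cKO samples. Cycling, DN3 and mature SP sums are lowest in Foxa1/2cKO 2 and near or above the controls in Foxa1/2cKO 1, and the B-cell sum is highest in Foxa1/2cKO 1.

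Genes outside the 10 were ranked by how closely their log2(FPKM + 1), centred on its mean, followed each gene over the 4 samples, as the root mean square of the differences. The genes nearest to *Notch3* were *Trip13* at 0.0657, *Snora61* at 0.0710, *Sp6* at 0.0758, *Hirip3* at 0.0783 and *Ndufaf2* at 0.0843, while the nearest of the 10 was *Ptcra* at 0.155. *Trip13*, which encodes an ATPase of the mitotic checkpoint, was at 7.01 and 7.77 FPKM in the controls against 5.92 and 2.54 in the Foxa1/2cKO samples, the same order of genotypes and samples as *Notch3*. The nearest gene to *Dtx1* was *Lrr1* at 0.0565, and to *Ptcra* it was *Penk* at 0.0556, the latter at 1.80 and 2.14 FPKM in the controls against 1.12 and 0.0638 in the Foxa1/2cKO samples. *Dtx1* and *Ptcra* were each other's nearest among the 10, at 0.129, and so were *Hes1* and *Nrarp*, at 0.0929. *Hes1* was followed most closely by *1500009L16Rik* at 0.0335 and *Nrarp* by the ubiquitin gene *Ubb* at 0.0296.

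For the genes with small differences the distances were shorter. *Rbpj* was nearest to *Rbm7* at 0.00439, *Maml1* to the calcium channel gene *Orai2* at 0.00885, *Notch2* to *Mdn1* at 0.0111 and *Notch1* to *Reep1* at 0.0168. *Orai2* was at 46.0 and 45.0 FPKM in the controls against 45.2 and 59.4 in the Foxa1/2cKO samples, high in the sample in which *Maml1* was high. The ranking rests on 4 samples and is a description.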

How the data were processed

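RNA from FACS-sorted CD69+DP thymocytes was sequenced in 4 samples. Per the study's methods, the authors aligned reads to mm10 (RefSeq annotation) and counted them by HTSeq in its union mode, without a stated strand setting, and the submitters' processing notes name TopHat, Picard and DESeq2. The deposited values are FPKM per gene, and the tool that made them is not given in the sources used here.

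Whole reads were recovered from the FPKM steps for 100% of the 16069 genes above 0 (up to a common divisor, with 3.66% of the genes over 50 reads multiplied to reach a whole length). The recovered reads ranged from 10257794 to 14288425 per sample. Of the symbols, 27 had turned into dates and were left as listed. limma 3.58.1 in R 4.3.3 was fitted to log2(FPKM + 1) with a mean-variance trend, on genes that reached an FPKM of 1 in 2 or more samples, with Benjamini-Hochberg adjustment at 0.05 (2 residual and 2.69 prior degrees of freedom). It was also run on simulated data with the same spread in both groups. That run does not cover the wider spread between the Foxa1/2cKO samples. Tables came from pandas 2.3.3 and numpy 2.4.6 under Python 3.11.15, intervals from scipy 1.17.1 and plots from matplotlib 3.10.9. Intervals of counts are exact at 95% and cover counting error only.

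The 10 genes, the pathway lists and the marker lists were chosen with earlier results of these data known. Named beside the 10 genes are the 2 most abundant genes of each pathway list, every pathway gene with an unadjusted p under 0.05, and the nearest gene to each of the 10 that passed the minimum (5 for *Notch3*). Coordinates and overlaps are from GENCODE M21 on GRCm38. There were 10 alternatives, which changed the pseudocount, the filter, the scaling, the replicate block, the variance trend, the unit (limma-voom on recovered reads) or left out 1 of the 4 samples. Promoters of *Hes1* and *Heyl* were not used here.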

Additional observations from a re-analysis of the deposited data

How the results depend on the processing

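With 2 samples per genotype, a single library decides most counts. The median difference of the Notch genes that passed the minimum was negative under all 10 alternatives. These genes were chosen on this contrast and the alternatives reuse the same samples, so nothing is read from the constant sign. The median ran from -0.94 to -0.09 in log2(FPKM + 1) when each sample was left out. It was smallest without Foxa1/2cKO 2 and largest without Foxa1/2cKO 1. It was -0.85 with a pseudocount of 0.1 and -0.91 with limma-voom on recovered reads, neither of which shrinks low values as strongly. *Notch1* and *Maml1* changed sign without Foxa1/2cKO 2, and the other 7 of these genes kept theirs. All genes with an adjusted p under 0.05 numbered 1 in limma, 0 with a pseudocount of 0.1, 0 without a filter (16069 genes tested), 0 with limma-voom, and 0 to 2695 when each sample was left out, 2695 without Foxa1/2cKO 1 and 24 without Foxa1/2cKO 2. The other pathway genes with an unadjusted p under 0.05 numbered 3, rising to 7 without a filter (72 genes tested), and ranged from 0 without either control to 24 without Foxa1/2cKO 1 and 11 without Foxa1/2cKO 2. In these fits the lone sample is assumed to vary like the other group. The causes were not tested.

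The labels number the samples and 2 in each group without saying what the numbers share. The deviations of same-numbered samples had a correlation of -0.06 over 10776 genes, and the main fit did not pair them. A correlation over all genes cannot decide whether the numbers mark a pairing. Myeloid sums were higher in both samples numbered 1 (53.7 and 51.7 FPKM) than in both numbered 2 (30.2 and 33.9 FPKM). So were the B-cell sums (78.4 and 107 against 52.1 and 56.0 FPKM), while the TCR response and erythroid sums were not. With the replicate block, 1 gene had an adjusted p under 0.05 and 378 an unadjusted p under 0.05, against 490 without it, and 0 pathway genes had an unadjusted p under 0.05. *Hes1*, at 2 to 27 reads per sample, and *Heyl*, at 6 to 16, are limited by depth.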
